A study of Drosophila melanogaster with 10 samples.

Results

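The genes described here are 41 genes that Drosophila cells use to copy their DNA, taken by gene name from the 14310 genes measured in the adult midgut. The 41 were chosen for their function in origin licensing, at the replication fork and at entry into S phase. Earlier results of these data were known when they were chosen. By role they are the origin recognition complex (Orc1 to Orc6), the licensing factors (Cdc6, dup, geminin), the MCM helicase (Mcm2, Mcm3, dpa, Mcm5, Mcm6, Mcm7, Mcm10) and the GINS complex (Sld5, Psf1, Psf2, Psf3). The next are polymerase alpha with primase (PolA1, PolA2, Prim1, Prim2) and polymerases epsilon and delta (PolE1, PolE2, PolD1, PolD2). The last are the clamp, its loader and the flap nuclease (PCNA, Gnf1, RfC3, RfC4, RfC38, Fen1), ribonucleotide reductase (RnrL, RnrS), regulators of the G1/S transition (E2f1, Dp, CycE, Cdk2) and the histone deposition factor Caf1-180. Of these, 33 carried the same name in the deposited gene table, and the 8 polymerase and primase subunits, stored there under older names, were matched through their gene identifiers.

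RNA was sequenced from midguts of adult male flies dissected on day 7 after eclosion, kept at 25 °C and fed yeast alone, with RNA of 20 midguts pooled in each library. The 5 libraries labelled dHNF4 RNAi came from w/Y males heterozygous for the driver mex-GAL4 (mex-GAL4/+) and for the transgene UAS-dHNF4 RNAi NIG9310-R2, so that an RNAi hairpin against Hnf4 was expressed in enterocytes, which absorb nutrients. The 5 control libraries came from w1118/Y males heterozygous for the same transgene with no driver. Both groups therefore carried the transgene, and the driver was present in the dHNF4 RNAi group alone. Hnf4 encodes a nuclear receptor, the counterpart of mammalian HNF4, and the comparison asks how midgut transcripts differ when the hairpin is expressed in enterocytes.

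Replication starts at origins bound by the origin recognition complex, where Cdc6 and the Cdt1 protein dup load the ring of MCM proteins before S phase. CycE with Cdk2 then triggers firing, GINS joins the MCM ring to form the active helicase, and the polymerases, held to DNA by the PCNA clamp, copy the strands. In the adult fly midgut these genes serve the division of intestinal stem cells and the endocycles by which enteroblasts grow into polyploid enterocytes.

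Values are TPM, in which a gene's reads are divided by transcript length and then scaled to a common library total. The deposited values come near a common total, at 975327 to 982443 per library. Depth cannot be recovered from TPM and is unknown here, so no counting error could be given. Fold changes are log2 differences of TPM + 1, dHNF4 RNAi over control, from limma. A gene was called at an adjusted p under 0.05 after Benjamini-Hochberg adjustment over the 8784 genes whose mean reached 1 TPM. TPM are shares of a library, and the log2 fold change had a median over all genes tested of 0.55 on the TPM as deposited, and 0.03 after median-of-ratios scaling, which sets each library by its median gene ratio. Of all genes tested 83.2% were called, and 80.4% of those calls were higher under the dHNF4 RNAi label, against 52.1% after the rescaling. On the first principal component, with 77.6% of the variance, the groups lay apart, with control replicate 2 at 31.76, the other controls at 45.87 to 49.35 and the libraries labelled dHNF4 RNAi at -46.29 to -42.52.

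Hnf4 itself (chromosome 2L, 8687226 to 8709611, minus strand, BDGP6.54) did not show lower TPM under the label. It measured 42.1, 46.1, 47.4, 44.7 and 48.0 TPM in the libraries labelled dHNF4 RNAi, against 36.5, 45.8, 41.8, 36.3 and 33.5 TPM in controls. On the TPM as deposited the ranges overlapped at control replicate 2. After median-of-ratios scaling they did not overlap, with dHNF4 RNAi below. The log2 fold change of Hnf4 was 0.24 (SE 0.0833, adjusted p = 0.0199) on the TPM as deposited, 0.19 (adjusted p = 0.0502) without control replicate 5, and -0.32 (adjusted p = 0.00133) after median-of-ratios scaling. Whether reads of the hairpin itself, or Hnf4 RNA of cells other than enterocytes, add to these values was not tested. The knockdown thus has no check at the transcript level that holds under both scalings, and every direction below is stated for the libraries as labelled.

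The replication genes were higher as a group in libraries with the dHNF4 RNAi label. Of the 41 members 40 passed the filter on low values, and all 40 were called higher, beside 66.9% of all genes tested that were called higher. The filter used the mean over all libraries, and 16 of the 41 members averaged under 1 TPM in controls. Those of the 16 that passed did so through their higher dHNF4 RNAi values. With no filter all 41 were called higher, beside 48.9% of all genes. A call on this scale was common among all genes, so the counts below are given by size of change as well. At least a 2-fold higher level together with a call was found in 32 members, against 16.5% of all genes tested. The median log2 fold change of the 40 members was 1.47 (range 0.24 to 3.91), which is 0.93 above the median of all genes, and 38 of the 40 lay above that median. Among the 500 genes with the largest log2 fold changes, 5.69% of those tested, 25 were members, and 8 were among the largest 100, which make 1.14%.

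After median-of-ratios scaling 37 members were called higher, beside 37.6% of all genes, and 23 were called at 2-fold or more, beside 4.11% of all genes. On that scale 2 members, Psf3 and E2f1, were called lower and Psf2 was not called, beside 34.6% of all genes called lower. The groups did not overlap, with dHNF4 RNAi above, in 35 members, beside 30.2% of all genes, and with dHNF4 RNAi below in 1 member, Psf3, beside 28.1%. The median over members was 1.06 (range -0.30 to 3.45), 1.02 above the median of all genes. The distance between the members and the other genes was similar under both scalings, while the absolute size was not. This rescaling moves all genes of a library by the same factor, so it can change that distance only through the added 1 TPM. With 0.1 or 5 TPM added in place of 1, the distance on the TPM as deposited was 1.39 or 0.34. In whole-midgut RNA, more cells that express a gene and more RNA of that gene per cell cannot be told apart, and this holds for every result below.

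Summed over the 41 members, the level was 496 ± 28.2 TPM (SD, n = 5, 453 to 522) in libraries labelled dHNF4 RNAi and 162 ± 27.6 TPM (n = 5, 139.5 to 210.4) in controls. Control levels were low for most members, with a mean under 1 TPM in 16 and under 2 TPM in 27, and no member had a mean under 1 TPM under the dHNF4 RNAi label. The median of the members' mean levels was 7.35 TPM in those libraries and 1.42 TPM in controls. The ratio of mean TPM, dHNF4 RNAi over control, ran between 1.2 for Psf3 and 20.3 for PolE2, with a median of 4.32. The lowest dHNF4 RNAi library lay above the highest control in 38 of the 40 members tested, beside 60.3% of all genes tested, and the exceptions were Psf2 and E2f1.

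**Figure D1:**
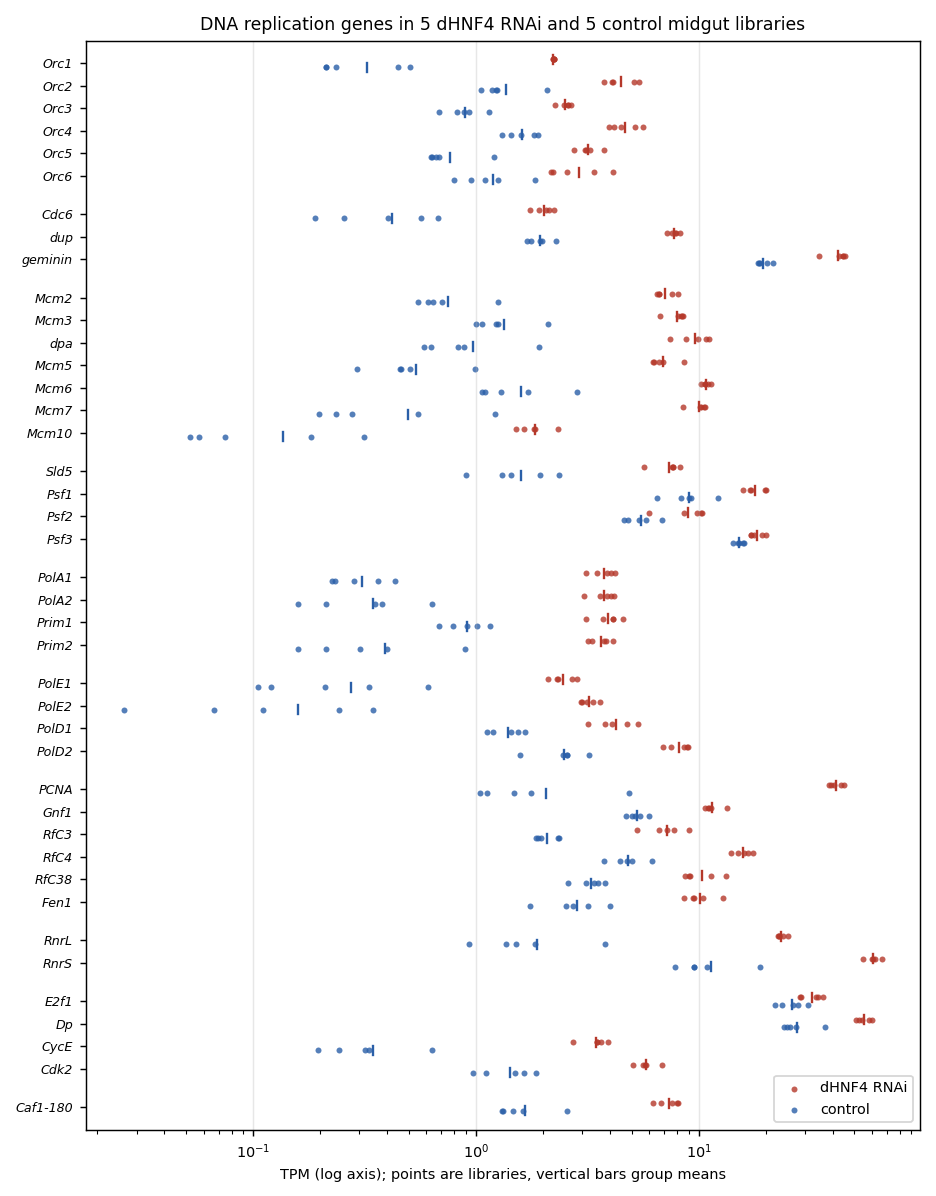
Level of each of the 41 replication genes in TPM on a log axis, with dHNF4 RNAi libraries in red above and controls in blue below in each row; points are libraries (n = 5 per group) and vertical bars are group means. The groups are separate for all genes drawn except Psf2 and E2f1, and most control means lie under 2 TPM.

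The 6 subunits of the origin recognition complex, which marks origins, all rose in the libraries labelled dHNF4 RNAi, with log2 fold changes of 0.82 to 1.29. Orc1 (chromosome 2R), the ATPase subunit that recruits Cdc6, had the largest change of the 6. It measured 2.24, 2.21, 2.23, 2.22 and 2.23 TPM in libraries labelled dHNF4 RNAi, against 0.446, 0.508, 0.236, 0.212 and 0.213 TPM in controls. The groups were far apart, and the dHNF4 RNAi values were nearly equal while control replicates 1 and 2 were higher than the other 3 controls. The log2 fold change of Orc1 was 1.29 (SE 0.0943, adjusted p = 2.35e-07). The others followed with 1.26 for Orc5, 1.23 for Orc2, 1.12 for Orc4, 0.90 for Orc3 and 0.82 for Orc6 (adjusted p = 0.000559), a DNA-binding subunit also linked to cytokinesis in flies. After median-of-ratios scaling all 6 were still called higher, and the smallest, Orc6, stood at 0.46 (adjusted p = 0.0205). All exonic bases of Orc3, 3315 of 3315, are shared on the same strand with another annotated gene, CG34315, which averaged 0.00562 TPM in dHNF4 RNAi libraries and was at 0 in controls, so reads of the 2 genes may have been split.

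All 3 licensing factors rose, and by different amounts. The added 1 TPM understates the change of low genes such as Cdc6, so their order depends on the measure. The ratio of mean TPM, dHNF4 RNAi over control, was 4.83 for Cdc6, 4.01 for dup and 2.16 for geminin. Cdc6 (3L, 8631509 to 8634069), which with the origin complex loads the MCM ring, measured 2.13, 2.23, 2.07, 1.92 and 1.75 TPM in libraries labelled dHNF4 RNAi, against 0.256, 0.678, 0.565, 0.189 and 0.405 TPM in controls. The groups did not overlap, and the log2 fold change of Cdc6 reached 1.10 (SE 0.114, adjusted p = 3.14e-06). The other loader, dup (2R), measured 7.79, 7.94, 7.55, 8.23 and 7.23 TPM, against 1.69, 2.28, 1.94, 1.98 and 1.77 TPM in controls. Both groups were tight and far apart, and dup had the smallest adjusted p of all members tested (log2 fold change 1.58, SE 0.0722, adjusted p = 1.32e-08). The inhibitor of dup, geminin (2R), was the most abundant of the 3 at 44.4, 44.3, 45.3, 42.5 and 34.5 TPM in libraries labelled dHNF4 RNAi, against 20.2, 21.5, 18.9, 18.6 and 18.4 TPM in controls. No geminin value of the groups overlapped, although dHNF4 RNAi replicate 5 was lower than the other 4 of its group. On the log2 scale geminin was 1.07 higher (SE 0.0812, adjusted p = 2.99e-07), or 0.52 after median-of-ratios scaling.

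The level of dup relative to its inhibitor was higher under the dHNF4 RNAi label. The ratio of dup to geminin TPM was 0.185 ± 0.017 (SD, n = 5, 0.167 to 0.21) in those libraries and 0.099 ± 0.00946 (n = 5, 0.0837 to 0.106) in controls, with no overlap. Such a ratio of 2 genes within a library is the same under every scaling of that library. It is a ratio of transcripts, not of the proteins.

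The MCM helicase showed larger changes than the origin complex, with a median log2 fold change of 2.30 over Mcm2 to Mcm7 against 1.17 over the 6 origin complex subunits; these medians are a description and were not tested against each other. Mcm7 (3L, 8891596 to 8894310), a subunit of the ring, had the largest value of the group. It measured 10.7, 10.6, 10.2, 10.1 and 8.48 TPM in libraries labelled dHNF4 RNAi, against 0.551, 1.22, 0.198, 0.278 and 0.235 TPM in controls. The groups were wide apart, with replicate 5 lowest in the dHNF4 RNAi group and replicate 2 highest among controls. For Mcm7 the log2 fold change reached 2.91 (SE 0.159, adjusted p = 4.06e-08), and the ratio of mean TPM was 20.2. Of its 2451 exonic bases, 2003 are shared with the antisense gene asRNA:CR45871, and the use of strand in quantification is not given in the sources used here.

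The other 5 subunits of the ring rose with log2 fold changes of 2.46 for dpa (Mcm4), 2.37 for Mcm5, 2.22 for Mcm2, 2.22 for Mcm6 and 1.97 for Mcm3. Their mean levels were 6.93 to 10.8 TPM in libraries labelled dHNF4 RNAi and 0.54 to 1.6 TPM in controls. In the dHNF4 RNAi group the 6 ring subunits, which the active helicase holds in equal number, lay close to each other. The highest of the 6 was 1.37 to 1.8 times the lowest within each of those libraries, against 2.88 to 6.57 times in controls. The same narrowing was seen for Orc1 to Orc6, at 1.87 to 2.51 times in libraries labelled dHNF4 RNAi and 2.94 to 8.56 times in controls. In controls many of these values are under 1 TPM, where the unknown depth limits how well such a ratio is measured.

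Mcm10, which helps to start the loaded helicase, had a mean of 0.985 TPM over all libraries, just under the filter, and was not in the main test. It measured 1.52, 1.83, 2.34, 1.85 and 1.64 TPM in libraries labelled dHNF4 RNAi, against 0.181, 0.316, 0.0569, 0.0747 and 0.0519 TPM in controls. The groups did not overlap, and with no filter the log2 fold change of Mcm10 reached 1.32 (SE 0.0882, adjusted p = 5.25e-07), where 48.9% of 13021 genes were called higher. Mcm10 (2L, 21179933 to 21182812, plus strand) shares 367 of its 2820 exonic bases with Ret on the opposite strand. Ret, a receptor tyrosine kinase gene, stood at 128 ± 9.45 TPM in libraries labelled dHNF4 RNAi and 0.621 ± 0.147 TPM in controls, and its part in the Mcm10 value was not tested.

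**Figure D2:**
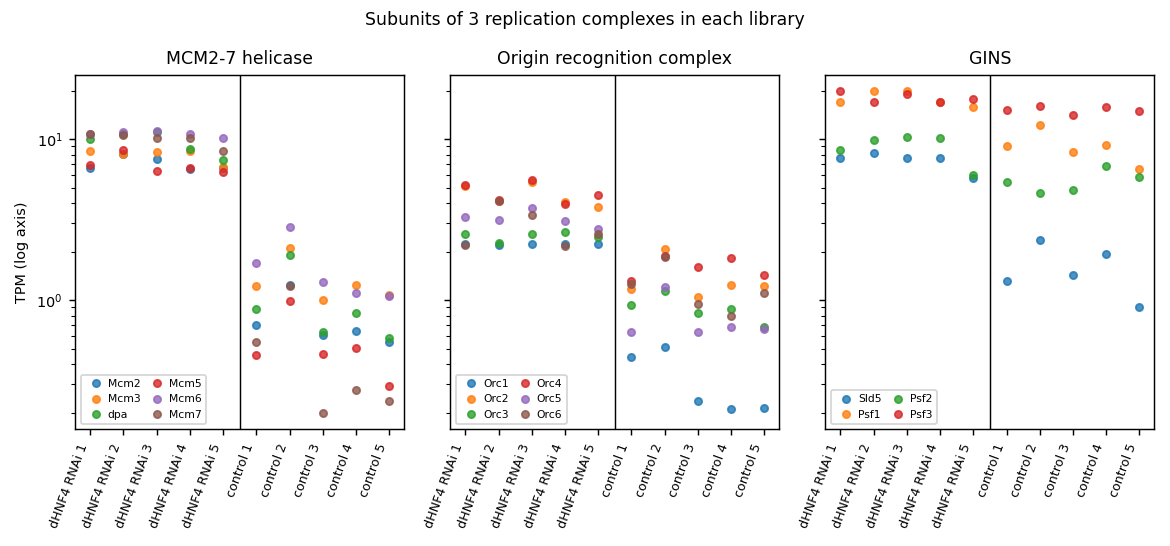
TPM on a log axis of the subunits of the MCM ring (left), the origin recognition complex (middle) and GINS (right) in each library, with the 5 dHNF4 RNAi libraries left of the 5 controls and a colour for each subunit. Within a complex the points lie closer together in the dHNF4 RNAi libraries; the highest GINS subunit is 2.24 to 3.1 times the lowest there, against 6.8 to 16.6 times in controls.

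The GINS complex, which joins the MCM ring at origin firing, was split. Its subunit Sld5 (3R, 26055657 to 26056547) measured 7.63, 8.2, 7.62, 7.66 and 5.71 TPM in libraries labelled dHNF4 RNAi, against 1.31, 2.36, 1.43, 1.94 and 0.906 TPM in controls. These did not overlap, and the log2 fold change of Sld5 reached 1.71 (SE 0.149, adjusted p = 8.06e-07). Psf1 rose by less, at 17.9 ± 1.86 TPM in libraries labelled dHNF4 RNAi and 9.07 ± 2.08 TPM in controls (log2 fold change 0.93). After median-of-ratios scaling Psf1 stood at 0.40, still called (adjusted p = 0.00688). Values by library are given next for Psf2 and Psf3, picked because their calls turned on the scaling.

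Psf2 (2L, 4386182 to 4387356) measured 8.6, 9.83, 10.3, 10.2 and 6.0 TPM in libraries labelled dHNF4 RNAi, against 5.38, 4.62, 4.81, 6.85 and 5.82 TPM in controls. The groups overlapped, because dHNF4 RNAi replicate 5 lay below control replicate 4. Its log2 fold change was 0.61 (SE 0.141, adjusted p = 0.0017) on the TPM as deposited and 0.11 (adjusted p = 0.527) after median-of-ratios scaling. Psf3 (X, 10383353 to 10385861) measured 20.0, 17.1, 19.2, 17.1 and 17.7 TPM in libraries labelled dHNF4 RNAi, against 15.2, 16.0, 14.2, 15.8 and 15.0 TPM in controls. The groups were separate but close, and the sign of the log2 fold change turned with the scaling, at 0.24 (SE 0.0615, adjusted p = 0.00324) on the TPM as deposited and -0.30 (adjusted p = 0.000447) after median-of-ratios scaling. Psf3 shares 831 of its 2380 exonic bases on the opposite strand with CG17841, which stood at 106 ± 12.0 TPM in libraries labelled dHNF4 RNAi and 185 ± 17.9 TPM in controls, and what that gene adds to the Psf3 value was not tested. Within GINS the highest subunit was 2.24 to 3.1 times the lowest in libraries labelled dHNF4 RNAi and 6.8 to 16.6 times in controls.

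Polymerase alpha and primase, which lay down the primers, rose with all 4 subunits. PolA1 (3R, 21666562 to 21671750), the catalytic polymerase subunit, measured 3.89, 4.22, 3.5, 4.06 and 3.13 TPM in libraries labelled dHNF4 RNAi, against 0.364, 0.434, 0.225, 0.284 and 0.232 TPM in controls. The lowest dHNF4 RNAi library was 7.21 times the highest control, and the log2 fold change of PolA1 reached 1.86 (SE 0.0942, adjusted p = 2.61e-08). PolA2, the accessory subunit, followed at 1.82, Prim2, the large primase subunit, at 1.76 and Prim1, the catalytic primase subunit, at 1.37. In libraries labelled dHNF4 RNAi the mean levels of the 4 were nearly equal, at 3.65 to 3.94 TPM, against 0.308 to 0.911 TPM in controls.

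The replicative polymerases also rose. Polymerase epsilon, which extends the leading strand, was led by its accessory subunit PolE2 (3L, 5895691 to 5897435). PolE2 measured 3.14, 3.37, 2.95, 2.98 and 3.61 TPM in libraries labelled dHNF4 RNAi, against 0.244, 0.345, 0.0664, 0.0262 and 0.111 TPM in controls. Every control lay far below every dHNF4 RNAi library, and the log2 fold change of 1.87 (SE 0.102, adjusted p = 4.06e-08) understates a ratio of mean TPM of 20.3, since the added 1 TPM exceeds the control level. The catalytic subunit PolE1 had a log2 fold change of 1.45, at 2.46 ± 0.298 TPM in libraries labelled dHNF4 RNAi and 0.275 ± 0.208 TPM in controls. Polymerase delta, which extends the lagging strand, had log2 fold changes of 1.12 for its catalytic subunit PolD1 and 1.41 for PolD2. The ratio of mean TPM was 8.93 for PolE1, against 3.05 for PolD1 and 3.29 for PolD2.

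PCNA (2R), the ring that tethers the polymerases to DNA, had the largest log2 fold change of all members and held rank 11 of the 8784 genes tested. It measured 38.3, 43.7, 40.4, 45.0 and 39.1 TPM in libraries labelled dHNF4 RNAi, against 1.76, 4.89, 1.04, 1.12 and 1.48 TPM in controls. The groups were far apart, and control replicate 2 stood above the other 4 controls. For PCNA the log2 fold change reached 3.91 (SE 0.244, adjusted p = 8.88e-08), 3.45 after median-of-ratios scaling and 4.18 without control replicate 2. The loader that opens this ring changed less. Its large subunit Gnf1 had a log2 fold change of 1.00, at 11.5 ± 1.09 TPM in libraries labelled dHNF4 RNAi and 5.26 ± 0.48 TPM in controls. Its small subunits stood at 1.54 for RfC4, 1.40 for RfC3 and 1.39 for RfC38, the last with 404 of its 1604 exonic bases shared on the opposite strand with Nup160. Fen1, which trims the flaps of Okazaki fragments, had a log2 fold change of 1.55.

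Ribonucleotide reductase, which makes the deoxyribonucleotides, rose strongly with both subunits. The large subunit RnrL (2L, 10325026 to 10327943) measured 22.8, 25.1, 23.0, 23.8 and 22.9 TPM in libraries labelled dHNF4 RNAi, against 1.84, 3.8, 1.36, 1.51 and 0.931 TPM in controls. The dHNF4 RNAi values were close together and lay above all controls, and the log2 fold change reached 3.16 (SE 0.195, adjusted p = 8.28e-08). The small subunit RnrS, the most abundant member in libraries labelled dHNF4 RNAi, stood at 60.7 ± 4.29 TPM there and 11.4 ± 4.37 TPM in controls (log2 fold change 2.38, SE 0.179, adjusted p = 2.86e-07). The ratio of RnrL to RnrS was 0.388 ± 0.0183 in libraries labelled dHNF4 RNAi and 0.158 ± 0.0305 in controls, with no overlap.

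The regulators of S phase entry were uneven. E2F transcription factors are dimers of E2f1 and Dp that switch on many genes of replication, and CycE activates Cdk2. E2f1 (3R, 21620304 to 21660871) measured 33.7, 28.8, 34.4, 28.4 and 36.0 TPM in libraries labelled dHNF4 RNAi, against 21.9, 30.8, 26.6, 28.0 and 23.7 TPM in controls. The ranges overlapped, since control replicate 2 lay above dHNF4 RNAi replicates 2 and 4. Its sign turned with the scaling, at 0.29 (SE 0.101, adjusted p = 0.0174) on the TPM as deposited and -0.26 (adjusted p = 0.0113) after median-of-ratios scaling. Dp (2R) measured 60.0, 50.9, 58.4, 52.3 and 54.3 TPM in libraries labelled dHNF4 RNAi, against 24.1, 36.7, 27.2, 25.6 and 25.0 TPM in controls. Dp was separate between the groups, with control replicate 2 apart from the other controls, and its log2 fold change stood at 0.98 (SE 0.106, adjusted p = 4.45e-06). The ratio of E2f1 to Dp was lower in the libraries labelled dHNF4 RNAi, at 0.585 ± 0.0474 there and 0.953 ± 0.0939 in controls, with no overlap.

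CycE (2L, 15727581 to 15748150) measured 3.91, 3.63, 3.5, 3.49 and 2.73 TPM in libraries labelled dHNF4 RNAi, against 0.318, 0.638, 0.33, 0.242 and 0.195 TPM in controls. All dHNF4 RNAi values lay above the controls, and the log2 fold change reached 1.73 (SE 0.112, adjusted p = 1.1e-07). Cdk2 (3R, 20735623 to 20738414) measured 5.06, 6.81, 5.61, 5.72 and 5.78 TPM, against 1.5, 1.86, 1.64, 0.967 and 1.11 TPM in controls. Its groups did not overlap either, and the log2 fold change of Cdk2 reached 1.50 (SE 0.115, adjusted p = 3.17e-07). Of the 2299 exonic bases of Cdk2, 1010 are shared on the opposite strand with CG17267, which averaged 0.0472 TPM in libraries labelled dHNF4 RNAi and 0 TPM in controls. The ratio of CycE to Cdk2 was 0.602 ± 0.113 in libraries labelled dHNF4 RNAi and 0.237 ± 0.0656 in controls, with no overlap.

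Caf1-180 (X, 8602137 to 8606304), the large subunit of the chromatin assembly factor that places histones on new DNA, measured 7.62, 7.99, 8.1, 6.76 and 6.26 TPM in libraries labelled dHNF4 RNAi, against 1.47, 2.56, 1.62, 1.32 and 1.31 TPM in controls. The groups did not overlap, although control replicate 2 was above its group. For Caf1-180 the log2 fold change reached 1.67 (SE 0.125, adjusted p = 2.84e-07).

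**Figure D3:**
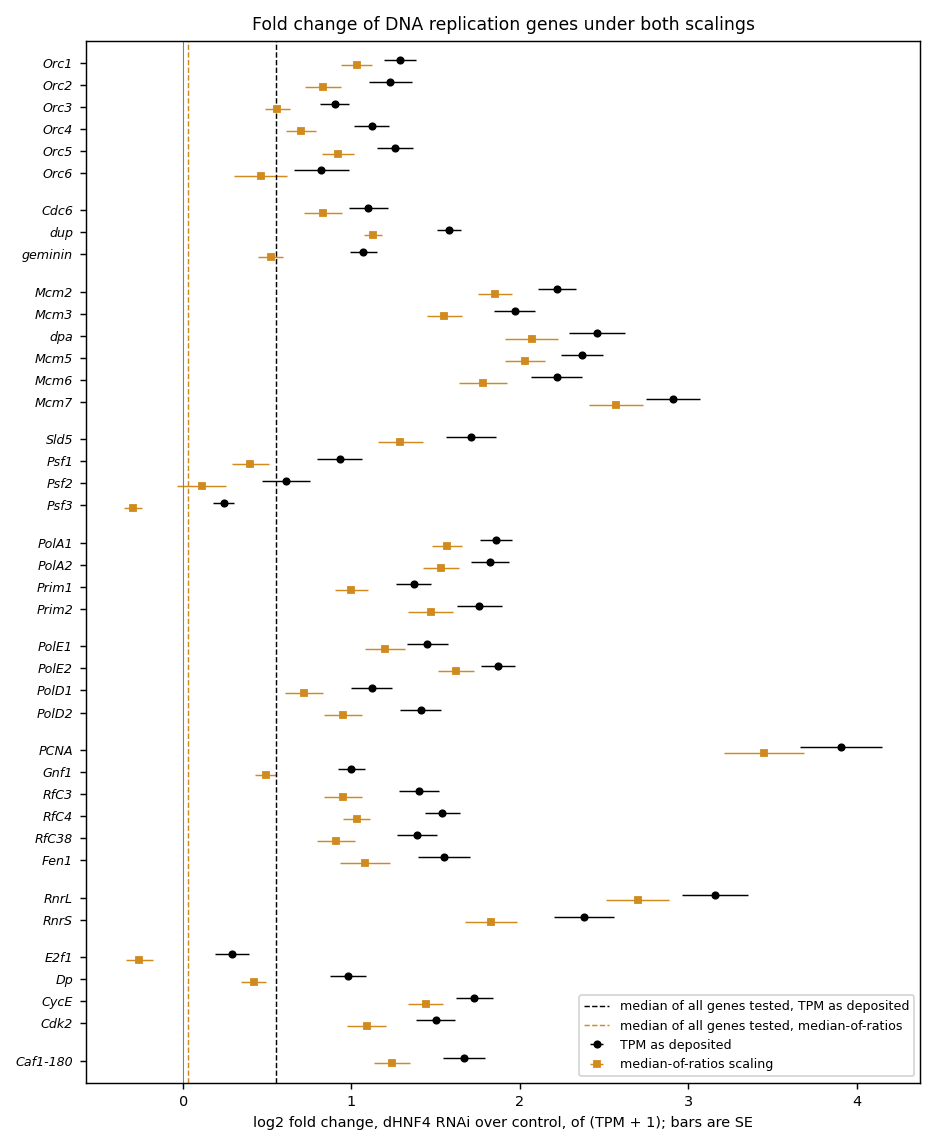
Log2 fold change of TPM + 1, dHNF4 RNAi over control, with its SE, for the 40 replication genes tested; black circles use the TPM as deposited and orange squares the same TPM after median-of-ratios scaling, and dashed lines mark the median of all genes tested (0.55 and 0.03). PCNA is highest at 3.91, and Psf3 and E2f1 lie at 0.24 and 0.29 on the deposited scale but below 0, at -0.30 and -0.26, after scaling.

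The authors' deposited table of log2 fold changes and unadjusted p-values, which holds 10494 genes, gave a further scale for the same libraries. The name of these deposited results mentions RUVSeq, a method to remove unwanted variation. Whether and how it entered the fold changes is not stated in the sources used here. There, in the authors' deposited table, higher values were listed for 36 of the 41 members at an unadjusted p under 0.05, beside 21.9% of all its genes, and none was lower, beside 17.9%. The members' median in the authors' deposited table was 1.71, with a median of 0.13 over all its genes. Psf1, Psf2, Psf3, E2f1 and Dp did not pass there, and in the authors' deposited table E2f1 stood at -0.44 (unadjusted p = 0.0796), Psf3 at -0.21 (unadjusted p = 0.436) and Dp at 0.30 (unadjusted p = 0.232). After Benjamini-Hochberg adjustment of the authors' p-values, computed here, Orc4 (adjusted p = 0.101) and Gnf1 (adjusted p = 0.0809) did not pass either. Hnf4, not a member, stood at -0.21 in the authors' deposited table (unadjusted p = 0.419). PolE2 was highest in the authors' deposited table at 4.01, followed by Mcm7 at 3.69 and PCNA at 3.65.

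Among the controls, replicate 2 was the highest for 39 of the 41 members. It was the highest control for 38 of the 40 members tested, beside 57.1% of all genes tested. Its TPM over the mean of the other 4 controls had a median of 1.74 over the members tested and 1.15 over all genes tested. Across all 41 members that ratio ran between 0.809 and 3.85, with Mcm7 highest. Summed TPM of the 10 progenitor markers was 55.7 in control replicate 2 and no more than 33.9 in the other controls, so the marker sum moved with the replication genes in that library, and its part in them was not tested. Without control replicate 2, all 40 members tested were called higher, with a median log2 fold change of 1.55.

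**Figure D4:**
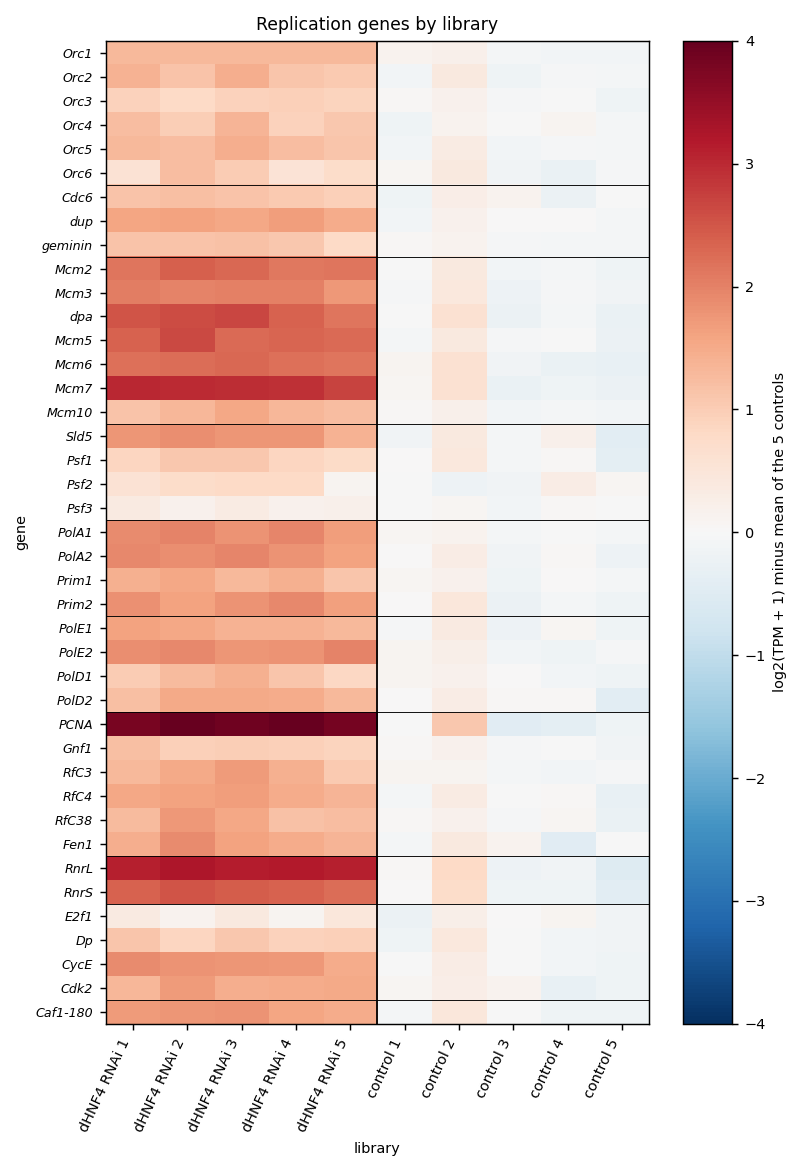
Each of the 41 replication genes (rows, by role) in each library (columns, dHNF4 RNAi left of control); colour gives log2(TPM + 1) minus the mean of the 5 controls. PCNA, RnrL and Mcm7 are darkest in the dHNF4 RNAi libraries, and the column of control replicate 2 is tinted red for most genes, where it is the highest control for 39 of 41.

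Other genes of the pathway, none of them a member, were taken from lists by function. Of the other replication fork proteins 20 of 22 names were found, and all 19 tested rose, with a median log2 fold change of 1.17; after median-of-ratios scaling 15 were called higher and 4 were not called. They included RPA2, a subunit of the single-strand binding protein, at 1.73, DNA ligase 1 (DNAlig1) at 1.72, the polymerase alpha tether Ctf4 at 1.57 and RpA-70 at 1.47. All 7 genes of nucleotide supply rose (6 after rescaling), with a median of 0.99. Thymidylate synthase (Ts) was at 12.2 ± 1.16 TPM in libraries labelled dHNF4 RNAi and 0.577 ± 0.571 TPM in controls (log2 fold change 3.12). Next were dUTPase at 2.60, the deoxynucleoside kinase dnk at 2.07 and the nucleoside diphosphate kinase awd at 0.99. All 824 exonic bases of dUTPase are shared on the opposite strand with asRNA:CR45778. All 8 histone chaperone and histone mRNA genes were called higher under both scalings, with a median of 1.31, among them Ssrp at 1.74, asf1 at 1.38, Caf1-55 at 1.37 and dre4 at 1.29.

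The 7 tested genes of E2F, Rb and dREAM, the complexes that repress or activate replication genes, rose with a median of 0.92, and 5 of them after rescaling. The repressor Rbf stood at 1.46, mip40 at 1.25, mip120 at 1.04 and Myb at 0.66, the last not called after median-of-ratios scaling (0.11, adjusted p = 0.0867). Of the 2928 exonic bases of Myb, 2903 are shared on the same strand with CG46440. All 9 other G1/S and endocycle regulators rose with a median of 0.81 (7 after rescaling), including the CycE and Cdk2 inhibitor dap at 1.02, l(2)dtl at 1.00, the transcription factor Dref at 0.89 and Cul4 at 0.75. Skp2, the weakest at 0.36 (adjusted p = 0.0238), was not called without dHNF4 RNAi replicate 3, 4 or 5 or without control replicate 1, 2 or 3 (adjusted p up to 0.0594). All 13 replication checkpoint and repair genes rose with a median of 0.86 (9 after rescaling), with the Chk1 kinase gene grp at 1.73, Hus1-like at 1.34, nbs at 1.18 and mre11 at 1.15. All 16 mitosis genes tested were called higher under both scalings, with a median of 1.61, among them polo at 2.45, Cdk1 at 2.06, borr at 1.71 and SMC2 at 1.36. Each count in this and the preceding paragraph is to be read beside the 66.9% of all genes called higher, or 37.6% after rescaling. The list medians stand beside 0.55 over all genes tested on the TPM as deposited.

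Markers of midgut cell types moved alongside. Progenitor markers, which label intestinal stem cells and enteroblasts, rose in 9 of 9 tested, with a median of 1.82 and summed TPM of 191 to 216 in libraries labelled dHNF4 RNAi and 24.6 to 55.7 in controls. Sox21a was at 3.83, Sox100B at 3.26, E(spl)m3-HLH at 2.95 and the Notch ligand gene Dl at 1.81, and 8 of the 9 were called higher after rescaling. Counts of markers called lower are to be read beside the 16.3% of all genes called lower on the TPM as deposited, or 34.6% after rescaling, and those called higher beside 66.9% and 37.6%. Of 10 enterocyte markers 4 rose and 4 fell, with the amylase gene Amy-d at -2.07, iotaTry at -1.69, Amy-p at -1.10 and Mal-A1 at -1.07, against the sterol transporter gene Npc1b at 1.68, nub at 1.20, mex1 at 0.87 and Jon65Aiii at 0.35. After rescaling 3 were called higher and 6 lower, and Jon65Aiii was not called (-0.23, adjusted p = 0.176), nor was it on the TPM as deposited without dHNF4 RNAi replicate 1 (adjusted p = 0.0519). Enteroendocrine markers were also split, 4 higher and 4 lower of 10, with a median of 0.11, and 1 higher and 5 lower after rescaling. The peptide hormone gene CCHa1 stood at 1.00 and pros at 0.41 (0.02 after rescaling), against NPF at -0.61, CCHa2 at -0.41, Orcokinin at -0.20 and Tk at -0.17. The part of a changed share of cell types in the replication gene levels was not tested.

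Markers of tissues that can cling to a dissected midgut were read as well. The part of such tissues in the replication gene levels was not tested. Of 11 visceral muscle markers 1 was called higher (Mef2 at 0.41, and -0.13 after rescaling) and 3 lower (sals at -0.23, up at -0.21 and wupA at -0.19), with 10 lower after rescaling, beside the same shares of all genes. Of 4 fat body markers 3 were lower (Lsp2 at -2.03, to at -1.03 and apolpp at -0.83) and none higher, and all 4 were lower after rescaling. Of 14 testis and germline markers, 12 were under 0.5 TPM on average in both groups, and bol stood at 6.93 ± 0.472 TPM in libraries labelled dHNF4 RNAi and 13.7 ± 1.22 TPM in controls. The single hemocyte marker tested, Pxn, was lower at -0.34, neither of 2 Malpighian tubule markers was called, and 1 of 3 neuron and trachea markers, elav, was higher at 0.49 but not called after rescaling (0.07). Summed TPM of the 3 Malpighian tubule markers found varied widely, at 1.99 to 47.5 in libraries labelled dHNF4 RNAi and 1.23 to 53.4 in controls.

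**Figure D5:**
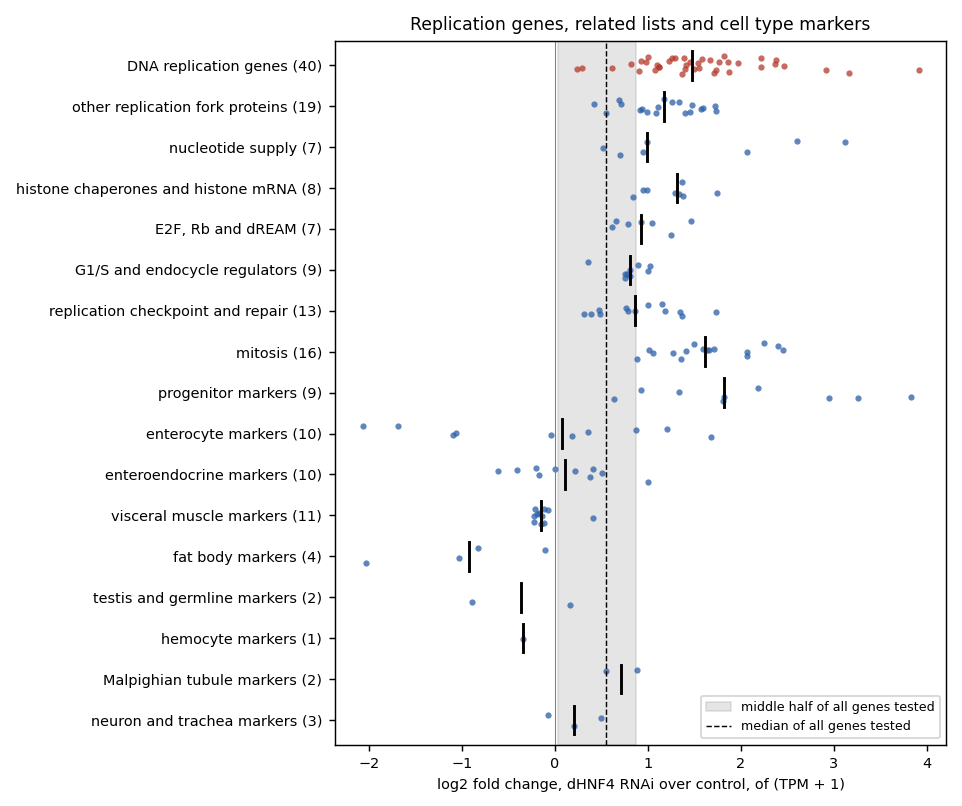
Log2 fold change of TPM + 1, dHNF4 RNAi over control, on the TPM as deposited, for the 40 replication genes tested (red) and for each other list (blue, number tested in brackets); points are genes, bars list medians, the grey band the middle 50% of all genes tested and the dashed line their median, 0.55. The medians of the replication genes (1.47), mitosis genes (1.61) and progenitor markers (1.82) lie right of the band. So do those of histone chaperones (1.31), other fork proteins (1.17), nucleotide supply (0.99) and E2F, Rb and dREAM (0.92). Medians left of the dashed line include those of enterocyte (0.07) and visceral muscle markers (-0.15).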

How the data were processed

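RNA from adult male midguts was sequenced in 10 libraries, 5 per group, after library preparation with a stranded TruSeq kit (stated in the labels' protocols), and groups and replicate numbers came from the labels. The tools named, per the submitters' processing notes, include kallisto, edgeR, FastQC and Trim Galore, and the genome build is BDGP6. Versions and the roles of the tools are not given in the sources used here. The authors deposited TPM per gene, with library totals of 975327 to 982443, and a table of log2 fold changes with unadjusted p-values, used only as the authors' own comparison. The labels call the replicates biological, each a pool of 20 midguts.

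Members were matched by name or, for 8 of 41, by gene identifier. Coordinates and overlaps came from Ensembl release 115 (BDGP6.54), which held 14263 of 14310 identifiers. Reads of overlapping genes may be divided by estimation. Groups were compared on log2(TPM + 1) with limma 3.58.1 in R 4.3.3 (moderated with trend, two-sided, no covariate) over the 8784 genes with mean TPM of at least 1; 5526 others were not tested. The added 1 TPM understates the change of low genes. Calls used an adjusted p under 0.05 (Benjamini-Hochberg). The fit was also run on simulated data in which few genes changed, rises and falls alike. That run does not cover data in which 83.2% of genes were called, most of them higher.

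Values by library were given for Hnf4, the member with the largest change in each role, the licensing factors, the G1/S regulators and members outside the test. Psf2 and Psf3 were added after their values were seen. Of each other list up to 4 called genes by smallest adjusted p were named, with those called against the list's majority; in evenly split lists, the lower called genes count as such. Npc1b, Jon65Aiii, Skp2 and AstA were named after their values were seen. Members, lists and tests were chosen with earlier results of these data known. The alternatives tried were quantile normalization, median-of-ratios scaling, leaving the 20 most abundant genes out of the scaling, a pseudocount of 0.1 or 5, a filter at 5 TPM or none, a replicate block, no trend, robust moderation and leaving out each library. Sequences of promoters and proteins were not analysed here.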

Additional observations from a re-analysis of the deposited data

Results flagged for a closer look

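Of 98 groups of 5 values examined (members, Hnf4 and ratios between members), 15 held a value that stood apart from the other 4 by Dixon's criterion. For a single group, chance alone gives about 1 in 20. The 98 groups come from the same 10 libraries and are not independent, so the count was not tested against that rate. Control replicate 2 accounted for 9 of the 15, each time as the highest control. It measured 4.89 TPM for PCNA (other controls 1.04 to 1.76), 18.9 TPM for RnrS (7.84 to 10.9) and 36.7 TPM for Dp (24.1 to 27.2). Among the helicase subunits it measured 1.25 TPM for Mcm2 (0.551 to 0.704), 2.11 TPM for Mcm3 (0.996 to 1.25) and 1.91 TPM for dpa (0.584 to 0.884). The remaining values of that library were 2.09 TPM for Orc2 (1.05 to 1.24), 1.21 TPM for Orc5 (0.631 to 0.682) and 2.56 TPM for Caf1-180 (1.31 to 1.62). Replicate 2 of the controls was thus apart for members of several roles at once.

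In the dHNF4 RNAi group, replicate 5 was the lowest library for 25 of the 40 members tested, beside 27.7% of all genes tested, and for 4 of them it stood apart by the same criterion. It measured 34.5 TPM for geminin (other libraries of the group 42.5 to 45.3), 6.72 TPM for Mcm3 (8.11 to 8.46), 8.48 TPM for Mcm7 (10.1 to 10.7) and 5.71 TPM for Sld5 (7.62 to 8.2). Replicate 2 of that group was highest for Mcm5 at 8.59 TPM (6.25 to 6.9), and replicate 1 was highest for Gnf1 at 13.4 TPM (10.7 to 11.4). None of these values reached the range of the other group. Without dHNF4 RNAi replicate 5 all 40 members tested were called higher, with a median log2 fold change of 1.49.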

How the results depend on the processing

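Of the 40 members tested, 37 kept their call and direction under every one of the 20 alternatives they entered, and Psf2, Psf3 and E2f1 did not. Psf3 turned to -0.30 (adjusted p = 0.000447) under median-of-ratios scaling and -0.31 under quantile normalization, and E2f1 to -0.26 and -0.21. Hnf4 likewise turned to -0.32 and -0.18, and the muscle marker Mef2 to -0.13 and -0.14. These scalings centre all genes near 0, gave 2 members called lower each, and moved the members' median to 1.06 and 1.07. Rescaling without the 20 most abundant genes ended the calls of Psf3 (0.12, adjusted p = 0.0759) and E2f1 (0.17, adjusted p = 0.112). The median was 2.00 with a pseudocount of 0.1 and 0.74 with 5, and its distance from all genes was 1.39 and 0.34. That distance was 1.23 with no filter. A filter at 5 TPM kept 17 members, of which 17 were called higher and 15 did not overlap. Leaving out each library gave 7170 to 7337 genes called, 40 members higher and 0 lower, a median of 1.43 to 1.55, 0.88 to 0.97 relative to all genes, and 38 to 39 members not overlapping. Among the genes of the other lists, 7 lost their calls without at least 1 library: Skp2, Jon65Aiii, Tk, AstA, Orcokinin, wupA and apolpp. Ratios between members, left out library by library as a choice made after seeing the data, kept their direction, such as 0.84 to 0.94 (log2) for dup over geminin.

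Replicate numbers did not pair the samples, with correlations of same-numbered deviations of -0.33 to 0.36, and a replicate block left 39 members called higher, E2f1 standing at adjusted p = 0.0508, and 7249 genes called. Depth is unknown, so values under 1 TPM carry an unstated counting error.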
